A study of Mus musculus with 3 samples.

Results

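The complement components described here are 8 mouse genes, C1qa, C1qb, C1qc, C3, C4b, Cfb, Cfp and Serping1, taken by name from a list of complement components that macrophages make. Each symbol was matched to its gene identifier through the name field of a deposited transcript table, and all 8 were found among 55536 annotated genes, of which 22028 were protein-coding. The members were chosen by function, although earlier results of these data were known when they were chosen.

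The RNA came from bone-marrow-derived macrophages, cells grown into macrophages from the marrow of C57BL/6J mice, and only its cytosolic fraction was used. The cultures received 100 ng/ml Lipid A, the part of bacterial lipopolysaccharide that Tlr4 senses, for 12 hours, were washed free of it for 12 hours and were given 100 ng/ml Lipid A again for 40 minutes. The 3 libraries, named replicates 1, 2 and 3, were made from 1 µg of RNA depleted of ribosomal RNA with a size range of 250 to 400, and all share this one treatment. Cells without Lipid A and cells exposed only once were not analysed here, so every value is a level after the second exposure and no change with Lipid A was measured. The replicates carry the same donor label and separate animals are not stated, so the spread between these 3 libraries may be technical. The p-values rest on that spread as seen over many genes. For 5 of the 7 pairs given calls they use the variance pooled over all genes and not the pair's own spread. These are cultured cells, and the proteins themselves were not measured.

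Complement is a cascade of plasma proteins that tags particles for uptake and can pierce membranes. C1q, built of A, B and C chains, starts the classical pathway by binding antibody complexes or dying cells, after which C4 and C2 form an enzyme that cleaves C3. C1 inhibitor (Serping1) restrains this first step. The alternative pathway amplifies C3 cleavage with an enzyme that contains factor B (Cfb) and is stabilised by properdin (Cfp). Most circulating components come from the liver, whereas C1q and properdin come largely from cells of the myeloid lineage.

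Promoter windows are shown so that the bases at start sites can be read beside the levels of the members. They cover only members with 1 TPM or more in all 3 libraries, so the lowest levels have no window to be set against. RefSeq's promoter table, of build GRCm38.p6, held 4 of the 8 members, namely C1qb, C1qc, C3 and Cfp, and had no entry for C1qa, C4b, Cfb and Serping1. Each window runs 5′ to 3′ along the gene's own strand, which was the minus strand for all 4, from 250 bases before the start site to 50 bases after it. Capitals mark every match to the motifs searched, on either strand. The windows lie at chr4:136886151-136886450 for C1qb, chr4:136892865-136893164 for C1qc, chr17:57228087-57228386 for C3 and chrX:20931506-20931805 for Cfp.
C1qb: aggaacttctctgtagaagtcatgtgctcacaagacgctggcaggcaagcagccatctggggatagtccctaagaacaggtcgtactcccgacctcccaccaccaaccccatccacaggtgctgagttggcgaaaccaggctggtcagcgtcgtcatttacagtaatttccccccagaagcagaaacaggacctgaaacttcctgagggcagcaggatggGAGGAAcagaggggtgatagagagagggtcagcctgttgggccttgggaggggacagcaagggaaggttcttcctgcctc
C1qc: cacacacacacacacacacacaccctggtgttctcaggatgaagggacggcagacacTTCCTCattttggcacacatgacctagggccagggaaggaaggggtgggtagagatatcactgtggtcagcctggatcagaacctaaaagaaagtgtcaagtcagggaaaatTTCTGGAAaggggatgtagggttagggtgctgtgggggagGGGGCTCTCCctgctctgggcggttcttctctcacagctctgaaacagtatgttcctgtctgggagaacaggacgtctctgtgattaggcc
C3: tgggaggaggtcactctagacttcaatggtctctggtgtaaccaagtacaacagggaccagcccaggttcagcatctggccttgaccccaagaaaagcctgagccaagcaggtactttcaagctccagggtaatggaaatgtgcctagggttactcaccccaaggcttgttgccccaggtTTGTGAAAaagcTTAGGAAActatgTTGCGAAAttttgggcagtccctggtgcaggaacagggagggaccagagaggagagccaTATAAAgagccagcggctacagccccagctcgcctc
Cfp: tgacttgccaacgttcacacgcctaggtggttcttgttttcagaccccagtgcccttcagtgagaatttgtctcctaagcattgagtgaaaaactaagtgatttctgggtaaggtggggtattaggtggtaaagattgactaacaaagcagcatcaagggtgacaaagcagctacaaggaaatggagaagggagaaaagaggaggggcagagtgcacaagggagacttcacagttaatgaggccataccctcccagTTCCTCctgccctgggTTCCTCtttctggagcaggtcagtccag

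The motifs searched were the core of PU.1, a factor that myeloid cells depend on, as GAGGAA, the C/EBP site as TTNNGNAA, the AP-1 site as TGANTCA, a short form of the interferon-stimulated response element as GAAANNGAA, the CCAAT box, the TATA box as TATAAA, and the NF-kB site by its usual consensus. Both strands were searched, and in these windows no match of one motif overlapped that of another. A PU.1 core stood 30 bases before the start site in the C1qb window and 193 bases before it in the C1qc window. In the Cfp window 2 such cores lay 6 and 22 bases after the start. The core occurs in 28.28% of all 32851 windows of the table. C1qc also held a C/EBP site 81 bases and an NF-kB site 41 bases before its start, against 40.68% and 8.459% of all windows with such a match. The C3 window held 3 C/EBP sites, at 70, 58 and 45 bases before the start, the last of which matches on both strands. It also held TATAAA 14 bases after the listed start, a hexamer found in 13.62% of windows. No window of the 4 held the interferon element, the AP-1 site or CCAAT, which occur in 8.56%, 7.808% and 37.41% of all windows. The GC content was 56.3% in the C1qb window, 53.3% in those of C1qc and C3 and 49.0% in that of Cfp, against a median of 52.67%. For C1qc the RefSeq start site, 136892914, lies inside the gene as drawn in the annotation used for the counts, whose start site is 136893065. By that start the C/EBP and NF-kB matches of C1qc lie inside the gene, and only its PU.1 core lies before it. A match describes letters only, and no binding was measured here.

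Depth and cell identity were checked before the levels were read. The libraries held 38197192, 46327891 and 38685666 expected counts on genes in replicates 1, 2 and 3. At these depths 3 counts, the upper 95% limit for a count of 0, equal 0.0648 to 0.0785 CPM, which covers counting error only. Levels are given as TPM, a unit that corrects for transcript length and sums to the same total in each library. The RNA of 7SL, part of the signal recognition particle, took 54.4%, 63.0% and 56.4% of TPM in replicates 1, 2 and 3, so all other TPM values are lowered by different amounts. All 10 macrophage markers were detected, with a summed level of 4184 to 5771 TPM, led by Lyz2 and Cd68. None of 10 fibroblast and stromal markers was detected (summed level 0.09 to 0.34 TPM, Thy1 and Pdgfrb or Dcn highest), and none of 6 hepatocyte markers (summed level 0 to 0.02 TPM, all from Apoa1), with Alb, Ttr and Fgb at 0. S100a8 and S100a9 were the only neutrophil markers detected of 8 (summed level 7.02 to 9.87 TPM), with Ly6g at 0. Of 6 mast cell markers only Hdc was detected (summed level 2.03 to 3.90 TPM, with Kit next and Mcpt4 and Tpsb2 at 0). The 6 dendritic cell markers, led by Clec9a and Xcr1, and the 6 B cell markers, led by Ighm and Pax5, stayed under 1 TPM when summed. In bulk RNA fewer cells of a type and less RNA per cell cannot be told apart.

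Of the 8 components 6 reached 1 TPM or more in all 3 libraries, the level called detected, as did 41.4% of all protein-coding genes. C1qb led, followed by C1qc, C1qa, Cfp, C3 and Cfb, whereas C4b and Serping1 were below 1 TPM in every library. At this level the description as macrophage-made held at the RNA level for 6 of the genes. Serping1 stayed under 1 TPM when TPM was rescaled over nuclear protein-coding genes, whereas C4b then had 2.55, 1.35 and 1.37 in replicates 1, 2 and 3, so its call depends on the scale. Together the 8 components summed to 2556, 1990 and 2206 TPM in replicates 1, 2 and 3, of which the C1q chains made up most. As a share of the TPM of nuclear protein-coding genes this was 0.767%, 0.710% and 0.798%, or 0.758% ± 0.0448 (SD, n = 3).

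**Figure D1:**
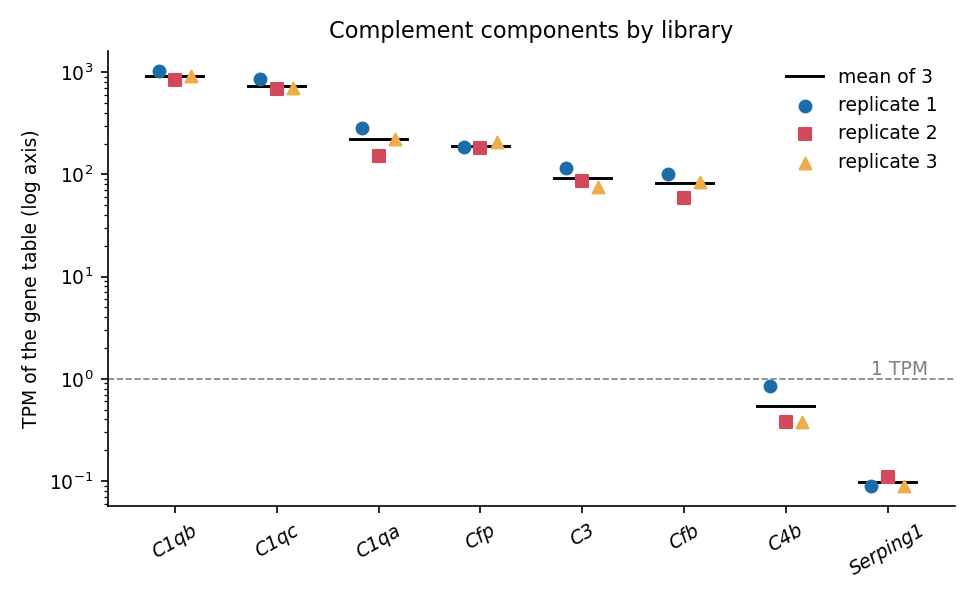
TPM of the 8 components in each library on a log axis, with a point per replicate and a line at the mean of 3, and a dashed line at 1 TPM. C1qb and C1qc sit highest at means of 924 and 741 TPM, and C4b and Serping1 sit below 1 TPM in all 3 libraries.

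The 3 C1q genes lie side by side on chromosome 4, all on the minus strand, in the mm10 build and annotation M21. C1qb (ENSMUSG00000036905.8) spans 136880129 to 136886187, C1qc (ENSMUSG00000036896.5) spans 136889804 to 136893065 and C1qa (ENSMUSG00000036887.5) spans 136895917 to 136898803. The gaps between neighbours are 3616 bases from C1qb to C1qc and 2851 bases from C1qc to C1qa. The expected counts behind their levels ran from 10073 for C1qa in replicate 2 to 58135 for C1qb in the same library, so counting error is small beside the spread between libraries.

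C1qb, the B chain, had 1017, 832.0 and 922 TPM in replicates 1, 2 and 3, or 924 ± 92.4 TPM (SD, n = 3). That mean ranked 24 among 9106 detected nuclear protein-coding genes. The 3 libraries were close, the highest at 1.22 times the lowest.

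C1qc, the C chain, had 851, 678 and 693 TPM, or 741 ± 95.7 TPM, and ranked 30. Its highest library was at 1.25 times its lowest. Replicate 1 was the highest for both chains, and the ranges of C1qb and C1qc overlapped only through replicate 1 of C1qc, which lay above replicate 2 of C1qb.

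C1qa, the A chain, had 285, 153 and 224 TPM, or 221 ± 66.4 TPM, and ranked 154. Every library of C1qa lay below every library of the other chains. It was also the least even of the 3, with replicate 1 at 1.87 times replicate 2.

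Within each library C1qb was above C1qc and C1qc was above C1qa. On the log2(TPM + 1) scale C1qb exceeded C1qc by 0.26, 0.29 and 0.41 in replicates 1, 2 and 3, a mean of 0.32 ± 0.08 (SE), which passed limma's test with a Benjamini-Hochberg adjusted p of 0.00441, higher in 3 of 3 libraries. C1qc exceeded C1qa by 1.57, 2.14 and 1.62, a mean of 1.78 ± 0.23 (limma, adjusted p = 1.89e-14, 3 of 3 libraries). C1qa was below C1qb by a log2 difference of -2.10 ± 0.12 (limma, adjusted p = 6.57e-07, lower in 3 of 3). These calls carry little about C1q itself, because 99.8% of 9647 genes passed the same test against C1qc, 98.0% against C1qa and 99.9% against C1qb. With each gene's own variance only, a setting added after the data were seen, the adjusted p values were 0.0207 for C1qb against C1qc, 0.0117 for C1qc against C1qa and 0.00733 for C1qa against C1qb.

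The chains assemble into C1q in equal numbers, and their RNA was not present in equal shares. Of the summed C1q TPM, C1qb held 47.2%, 50.03% and 50.1%, C1qc held 39.5%, 40.8% and 37.7%, and C1qa held 13.2%, 9.18% and 12.2% in replicates 1, 2 and 3. As means these were 49.1% ± 1.65, 39.3% ± 1.57 and 11.5% ± 2.12 (SD, n = 3). Replicate 2 had the lowest C1qa share of the 3. The transcript table made from reads without an alignment file, called read-based here, gave 48.8% ± 1.64, 39.5% ± 1.58 and 11.7% ± 2.10. The effective lengths behind these values were alike, at 867 bases for C1qb, 982 for C1qc and 819 for C1qa. No 31-base word of the 3 main transcripts occurred in a transcript of another gene, so reads of these genes were not shared at that length.

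**Figure D2:**
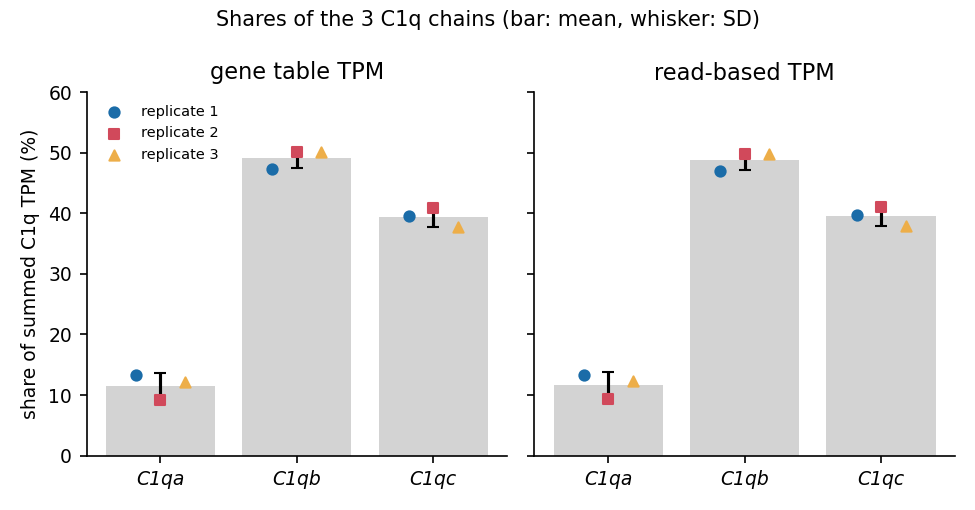
Share of the summed TPM of the 3 C1q chains held by each chain, in percent, from the gene table (left) and from the read-based table (right), with a point per replicate, bars at the mean and whiskers of 1 SD. C1qa holds the smallest share in both tables, with means of 11.5% and 11.7%.

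C4b and C3 carry the cascade on from C1. C4b, the mouse C4 that is cut after C1 is activated, had 0.85, 0.38 and 0.38 TPM in replicates 1, 2 and 3, or 0.537 ± 0.271 TPM (SD, n = 3), from 142.64, 90.94 and 93.18 expected counts. Replicate 1 was the highest and the other two were equal. C4b (ENSMUSG00000073418.4) lies on chromosome 17 from 34728380 to 34743882, and 48.8% of the 31-base words of its main transcript also occur in C4a, its close paralogue 65209 bases away, so reads of the pair may have been split and both values are uncertain. The read-based table placed C4b lower still, at 0.148 ± 0.0851 TPM, and 0.60 on the log2 scale below the offset between tables that other detected genes showed. In the transcript table made from alignments, C4b-203, a retained-intron transcript of 749 bases, held 38.9% ± 7.96 of C4b TPM. The protein-coding C4b-201 of 5379 bases held 58.4% ± 8.72. The read-based table gave 3.58% ± 5.83 to C4b-203 and 89.97% ± 17.0 to C4b-201. Of the expected counts of C4b in the table made from alignments, C4b-203 held 6.48% ± 2.06 and C4b-201 held 93.0% ± 2.26. The short transcript thus held a larger share of TPM than of counts, and how far it raised the TPM of C4b was not tested.

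C3, the component on which all routes of activation meet, had 115, 86.6 and 74.96 TPM, or 92.1 ± 20.5 TPM, and ranked 514 among the detected nuclear protein-coding genes. Replicate 1 was the highest and replicate 3 the lowest, with a ratio of 1.53 between them. C3 (ENSMUSG00000024164.15), on chromosome 17 from 57203970 to 57228136, had 24431 to 34191 expected counts over an effective length of 4915 bases, so its counts exceeded those of C1qa in every library although its level per length was lower. A miRNA gene, Mir6978, lies within C3 on the same strand and had 0 counts in the gene table, and 0, 0 and 0.376 TPM in the read-based table. C3 exceeded C4b by 5.91 on the log2(TPM + 1) scale, by 7.23 with a pseudocount of 0.1 and by 4.11 with 5.

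Cfb, factor B, supplies the protease of the alternative pathway's C3-cleaving enzyme. It had 101, 59.4 and 84.1 TPM in replicates 1, 2 and 3, or 81.5 ± 20.96 TPM (SD, n = 3), and ranked 581. Replicate 2 was the lowest, as it was for C1qa, and replicate 1 was at 1.70 times its level. Cfb and C3 overlapped, and neither was above the other in all libraries. The log2 difference of C3 over Cfb was 0.18, 0.54 and -0.16, a mean of 0.19 ± 0.20 that missed the threshold (limma, adjusted p = 0.364), while 96.2% of the 9647 genes passed against Cfb. That mean was 0.0094 without replicate 2 and 0.36 without replicate 3, and the read-based table gave 0.41 with an adjusted p of 0.0507.

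Cfb (ENSMUSG00000090231.10) lies on chromosome 17 from 34856374 to 34862518, and like all 8 components it is on the minus strand. The miRNA gene Mir6972 lies within it and had 0 counts in the gene table, and 1.42, 0 and 1.36 TPM in the read-based table. Cfb is 112491 bases from C4b and 85 bases from C2, the classical-pathway relative of factor B. C2 had 0.54, 0.48 and 0.33 TPM, and Cfb exceeded it by 5.80 on the log2(TPM + 1) scale, by 7.20 with a pseudocount of 0.1, by 3.96 with 5 and by 4.22 in the read-based table.

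Of the 6 detected components Cfb alone had its RNA spread over several annotated transcripts, since C1qa and C1qb have 1 annotated transcript each and 1 transcript of C1qc, C1qc-201, held 99.7% ± 0.229 of its TPM, and all C3 TPM in the table made from alignments fell to its longest transcript, of 5136 bases. In the transcript table made from alignments, Cfb-202 of 2751 bases held 40.0% ± 9.00 of Cfb TPM, Cfb-206 of 2397 bases held 36.7% ± 4.85 and Cfb-204 of 973 bases held 18.3% ± 2.74 (SD, n = 3), and Cfb-201 of 2737 bases was listed at 0 in all libraries. The read-based table gave 54.0% ± 2.39 to Cfb-202, 17.1% ± 2.95 to Cfb-206, 1.85% ± 1.03 to Cfb-204 and 21.5% ± 4.97 to Cfb-201. Cfb-202 led in the mean of both tables, the order below it differed, and in the alignment-based table Cfb-206 was ahead of it in replicates 2 and 3. All of these are annotated as protein coding, and the transcript subject to nonsense-mediated decay, Cfb-203, held 1.09% ± 0.578 and 1.63% ± 0.178 in the alignment-based and the read-based table. A read-through gene on the same strand, Gm20547, spans 34856412 to 34882042 and contains 81.5% of the 31-base words of Cfb-202, and had 0 counts in every library, so no shared read was assigned to it. The effective length of Cfb was 2084, 1894 and 1961 bases in replicates 1, 2 and 3, and it moved with the transcript shares.

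**Figure D3:**
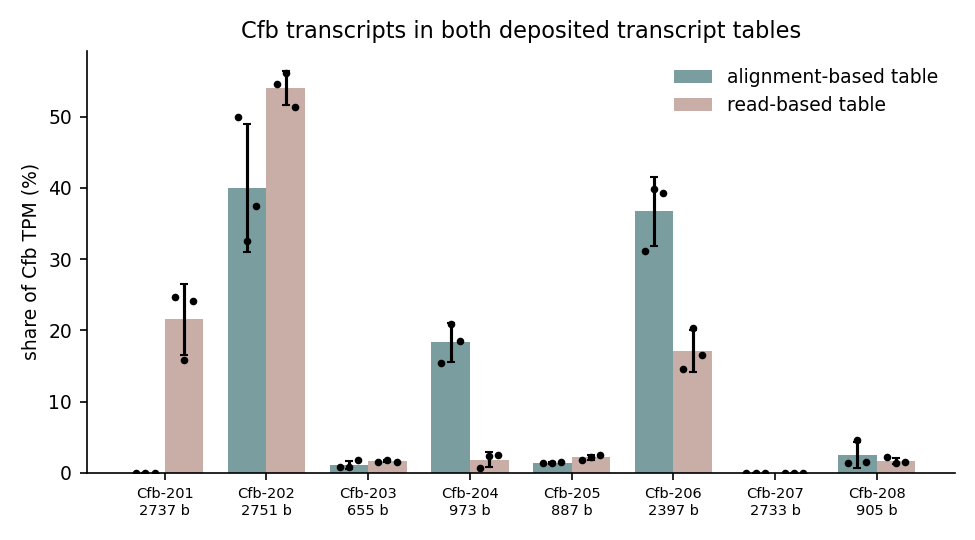
Share of Cfb TPM, in percent, given to each of the 8 annotated transcripts of Cfb by the alignment-based and the read-based transcript table, with lengths in bases under the names, bars at the mean of 3 libraries, whiskers of 1 SD and a point per library. Cfb-201 is listed at 0 in the alignment-based table and holds 21.5% in the read-based table.

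Cfp, properdin, the positive regulator that stabilises the alternative pathway's enzyme, had 187, 181 and 207 TPM, or 192 ± 13.8 TPM (SD, n = 3), and ranked 200. Its libraries were the closest of any detected component, with a ratio of 1.14 between replicates 3 and 2. When TPM was rescaled over nuclear protein-coding genes this ratio was 1.34, whereas that of C1qc fell to 1.06 and that of C1qa to 1.57. Cfp (ENSMUSG00000001128.7) lies on chromosome X from 20925454 to 20931555, and its transcript Cfp-201 held 98.1% ± 0.805 of its TPM.

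Cfp exceeded C3 by 0.70, 1.06 and 1.45 on the log2(TPM + 1) scale in replicates 1, 2 and 3, a mean of 1.07 ± 0.17 (SE; limma, adjusted p = 4.66e-10, higher in 3 of 3 libraries). It exceeded Cfb by 0.88, 1.59 and 1.29, a mean of 1.25 ± 0.20 (limma, adjusted p = 5.76e-10, 3 of 3). The share of genes that passed was 97.2% against C3. With each gene's own variance only, the adjusted p values were 0.0420 and 0.0297. C1qa and Cfp could not be ordered, since C1qa exceeded Cfp by 0.61 in replicate 1 and 0.11 in replicate 3 and differed by -0.25 in replicate 2. The mean of 0.16 ± 0.16 missed the threshold (limma, adjusted p = 0.314), where 98.5% of genes passed against Cfp, and without replicate 1 it was -0.065.

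Serping1, the C1 inhibitor, which blocks the proteases C1r and C1s, had 0.09, 0.11 and 0.09 TPM, or 0.0967 ± 0.0115 TPM (SD, n = 3), from 6, 14 and 9 expected counts. With so few counts its level is imprecise, and it is far under that of every detected component. It lies on chromosome 2 from 84765387 to 84775444 (ENSMUSG00000023224.12). Serping1 was below C1qa, the chain of the complex it inhibits, by a log2(TPM + 1) difference of -7.61, which the pseudocount sets in large part, as it was -10.09 with a pseudocount of 0.1 and -5.42 with 5. C4b and Serping1 differed by 0.47 on that scale, and this difference passed or missed the threshold by setting, so no order is given for them.

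The libraries did not move alike across the components. A deviation was taken for each library as log2 TPM less the mean of the other two libraries on that scale, centred on the median of the 9106 detected nuclear protein-coding genes. C1qa deviated by 0.39, -0.59 and 0.19 in replicates 1, 2 and 3, and Cfb by 0.28, -0.50 and 0.20. Both were low in replicate 2, where 2.20% of genes were lower than C1qa and 3.59% lower than Cfb. Of the 10 macrophage markers 7 were below 0 in replicate 2, with Spi1 only just so at -0.0027, against 3 in replicate 1 and 3 in replicate 3. The centring puts the median gene at 0, so this count alone says little. The 10 markers ran from -0.60 for Adgre1 to 0.28 for Cd68 in replicate 2. Their median was -0.24, against medians of 0.12 and 0.11 in replicates 1 and 3. Their part in the values of C1qa and Cfb was not tested. C3 deviated by 0.28, 0.04 and -0.33, with 7.56% of genes lower in replicate 3. Cfp ran the other way, at -0.29, 0.02 and 0.26, with 7.03% of genes lower in replicate 1. C1qb (-0.02, -0.08 and 0.09) and C1qc (0.08, -0.04 and -0.05) stayed near 0 throughout. Whether the 7SL share, highest in replicate 2, has a part in these deviations was not tested.

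**Figure D4:**
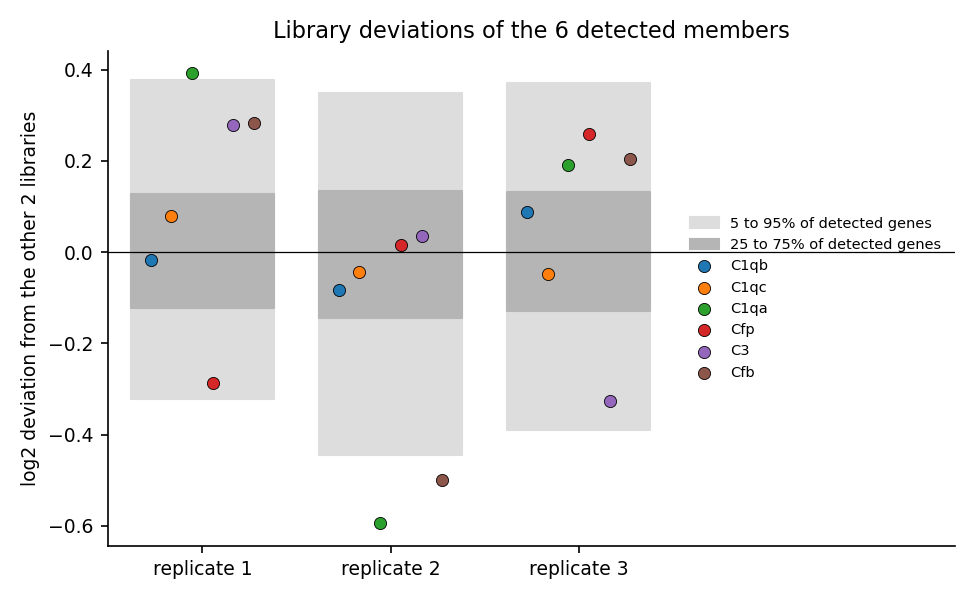
Deviation of each library from the other 2 (log2) for the 6 detected components, with grey bands for the 5 to 95% and 25 to 75% range of the 9106 detected nuclear protein-coding genes. C1qa and Cfb fall below the wider band in replicate 2, at -0.59 and -0.50, C1qa lies just above it in replicate 1, and C1qb and C1qc lie within the narrower band in all 3 libraries.

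As SDs of log2(TPM + 1) over the libraries, C1qa had 0.45, Cfb 0.38 and C3 0.31, and 97.5%, 95.2% and 89.8% of detected protein-coding genes had a lower SD. C1qc had 0.18, C1qb 0.14 and Cfp 0.10, with 59.6%, 44.5% and 25.9% of genes lower. These SDs are of TPM before rescaling, and the place of Cfp depends on the scale. Rescaled over nuclear protein-coding genes, the highest library was at 1.34 times the lowest for Cfp, 1.27 for C3, 1.12 for C1qb and 1.06 for C1qc. On the counts, edgeR's coefficient of biological variation was 0.172 for both C1qa and Cfb, 0.142 for C3, 0.134 for Cfp and 0.119 for both C1qb and C1qc, against a median of 0.144 over 12752 genes. C4b, with few counts, had 0.321, and Serping1 did not pass the filter on low counts. This coefficient was above that of the median gene for C1qa and Cfb, with 59.7% of genes lower for each. It is drawn toward that of other genes, unlike the SD, so these percentages cannot be set against each other. On TMM-normalized counts the replicate 2 deviations were -0.60 for C1qa and -0.61 for Cfb, against -0.59 and -0.50 by TPM.

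By the distance between 3 centred log2(TPM + 1) values, the closest pair of components was C1qa and Cfb, at 0.10, followed by C1qb and C1qc at 0.11. The 3 neighbouring C1q genes did not form one pattern, since C1qa was 0.44 from C1qb and 0.45 from C1qc. C1qa and Cfp were the most unlike of the pairs named here, at 0.61. Among 4142 protein-coding genes with a mean of 10 TPM or more, those nearest to C1qa were Lpin2 at 0.0308, Gbgt1 at 0.0344 and Stat3 at 0.0403. Nearest to Cfp were Por at 0.00782, Igf2r at 0.0103 and Cep250 at 0.0120. With 3 libraries such distances describe these samples only.

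The other complement genes were read from a list of 51 in 6 roles that includes the 8 components. Of the 51, 17 were detected and 13 had 0 counts in all libraries, and without the components 11 of 43 were detected. Over all 22028 protein-coding genes 9118, or 41.4%, were detected and 7055 had 0 counts. The median level was 0.10 on the log2(TPM + 1) scale, against 0.23 for all protein-coding genes. By role, of 17 genes that initiate the classical and lectin pathways 5 were detected, of 4 for C3 and the alternative pathway 3, of 7 terminal components 0, of 8 soluble regulators 0, of 6 membrane regulators 3 and of 9 receptors 6.

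The proteases that C1q activates were low where C1q was high. C1ra, a C1r protease, had 4.03, 2.76 and 2.64 TPM, and its paralogue C1rb had at most 0.02 TPM. C1s1 had 0.03, 0.02 and 0.06 TPM and C1s2 0.01, 0.01 and 0.02 TPM. C4a was listed at 0.28, 0.1 and 0.3 TPM, against 0.85, 0.38 and 0.38 TPM for C4b, with the shared sequence noted above. Fcna, a ficolin that starts the lectin pathway, had 2.0, 1.97 and 1.76 TPM.

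Of the partners of Cfb and C3, Cfd, the protease that cuts factor B, had 0 counts in all 3 libraries. Cfi, which degrades C3b, had 0.04 TPM in replicate 1 and 0 in the others. Hc, the mouse C5, had 0 counts.

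Receptors for complement fragments were among the detected genes. C3ar1, the receptor for the C3a fragment, had 307, 243 and 219 TPM, above C3 itself in each library. Replicate 1 was the highest and replicate 3 the lowest, as for C3, C5ar1, C5ar2 and Cd93 but not for Itgam and Itgb2. The summed TPM of nuclear protein-coding genes had that order too, at 333206, 280518 and 276557 in replicates 1, 2 and 3. C5ar1, which senses C5a, had 64.64, 51.02 and 44.64 TPM, and C5ar2 had 1.27, 1.06 and 1.04 TPM. Itgam and Itgb2, the chains of complement receptor CR3 that binds cleaved C3b, had 47.3, 33.3 and 41.6 TPM and 100.22, 87.9 and 104.0 TPM; Itgam was also one of the macrophage markers. Cd93, once described as a C1q receptor, had 62.2, 56.0 and 53.2 TPM. Of the regulators on the membrane, Cr1l (Crry), which limits C3 cleavage on mouse cells, had 23.27, 24 and 21.72 TPM, Cd55 had 3.4, 1.7 and 2.43 TPM and Cd59a had 1.62, 1.16 and 1.34 TPM. Cd55 was low in replicate 2, with a deviation of -0.62, beside -0.59 for C1qa.

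**Figure D5:**
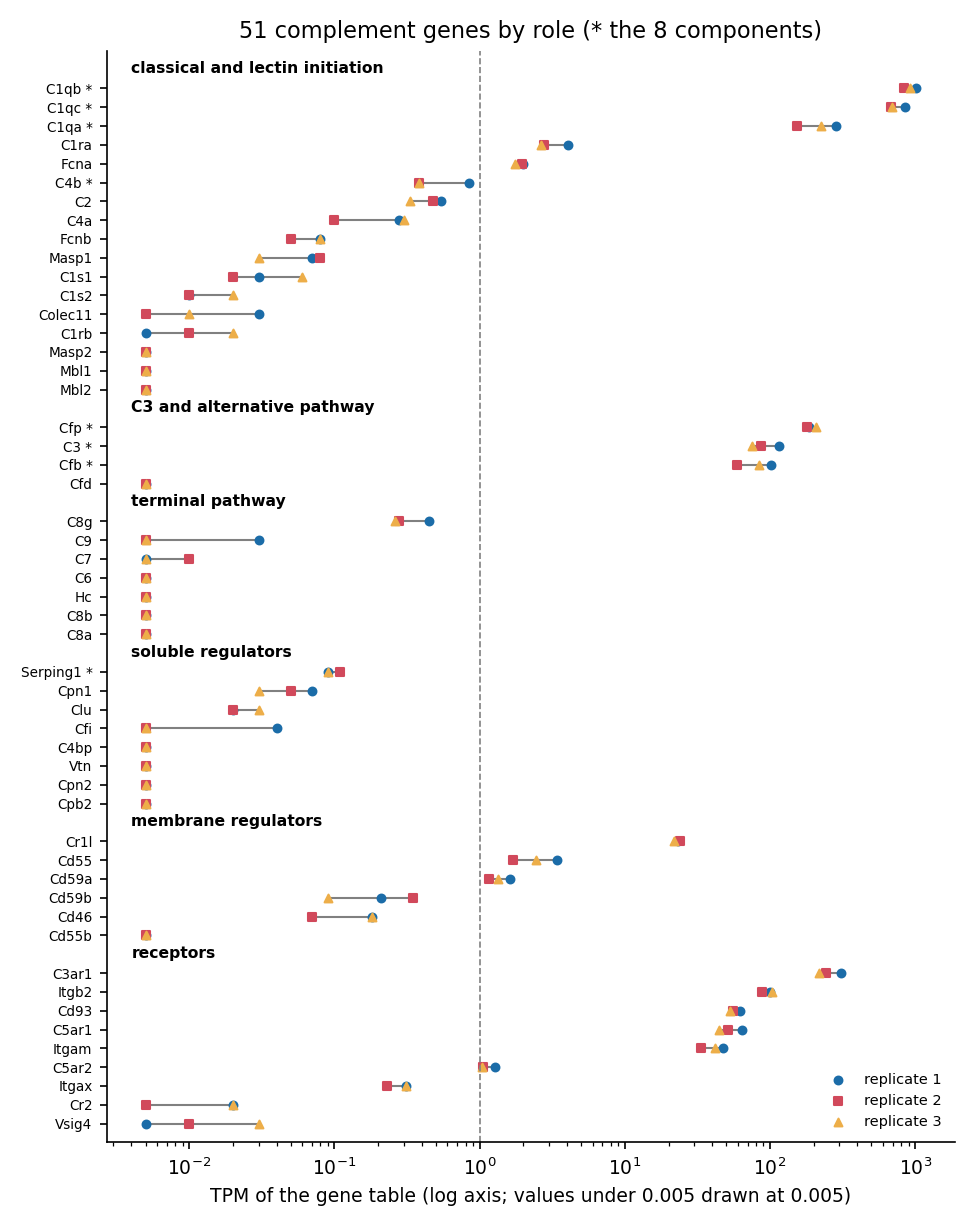
TPM of 51 complement genes by role on a log axis, with a point per replicate, values under 0.005 drawn at 0.005, a dashed line at 1 TPM and stars on the 8 components. Detected genes number 5 of 17 in initiation, 3 of 4 for C3 and the alternative pathway, 0 of 7 terminal components, 0 of 8 soluble regulators, 3 of 6 membrane regulators and 6 of 9 receptors.

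The read-based table kept the order of the 8 components and placed each lower in TPM, at 347 ± 16.9 for C1qb, 281 ± 27.6 for C1qc, 82.9 ± 15.96 for C1qa, 74.9 ± 6.80 for Cfp, 36.1 ± 7.61 for C3, 26.9 ± 5.80 for Cfb and 0.0387 ± 0.00935 for Serping1 (SD, n = 3). Most of this was an offset of all genes, with a median log2 ratio of read-based to gene table of -1.29 over detected genes. Less that median, C1qa, C1qb, C1qc, C3 and Cfp were within 0.12 of 0, Cfb was at -0.30 and C4b at -0.60, where the SD over genes was 0.28.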

How the data were processed

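Total RNA of the cytosolic fraction was sequenced in 3 libraries that the labels place in 1 group, so no groups were compared. Per the file headers, the deposited gene tables hold expected counts, TPM and FPKM in the layout of RSEM, and the deposited transcript tables hold estimated counts and TPM, one kind made from alignments and another in the layout of kallisto made from reads. The accompanying text names mm10 and annotation M21; the aligner and the quantifiers: not given in the sources used here. In all, 26345 entries that name no gene held 0.356%, 0.125% and 0.104% of counts in replicates 1, 2 and 3 and were left out. All 3 libraries were used, whereas the lower and upper bounds of TPM that the gene tables also hold were not.

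Gene pairs were tested with limma 3.58.1 in R 4.3.3, two-sided, on log2(TPM + 1) of every gene minus the second gene named in the pair, over 9647 genes (those with 1 TPM or more in all 3 libraries, and the pair), with Benjamini-Hochberg adjustment over all of them and a threshold of 0.05. The variance is drawn toward that of other genes. For 5 of the 7 pairs given calls the prior was infinite, so their SEs and p-values rest on the variance pooled over all genes and not on the pair's own spread. Of 13 chosen pairs, those 7 are among abundant members, and the rest are values only. Replicate variation came from edgeR 4.0.16 with TMM and filterByExpr on rounded expected counts, with DESeq2 1.42.0 as alternative. Tables were handled in Python 3.11.15 with numpy 2.4.6 and pandas 2.3.3. Scripts were tested on simulated data. Alternatives were other tables, scalings, pseudocounts, filters and variance priors, and each library left out.

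Named genes were the members, the detected genes and direct partners of members in the complement list, genes overlapping a member, the 3 genes nearest in pattern to the members with the largest and smallest SD, and the 2 highest markers of a cell type. Serping1 had the smallest SD, being near 0, and its nearest genes were Rpl10-ps3, Utp11 and Snx9; Cfp was added after its values were seen, and so were markers named at 0. One gene of these lists is not reported here. The members and lists were chosen with earlier results of these data known.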

Additional observations from a re-analysis of the deposited data

How the results depend on the processing

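Of 84 alternative values for the 7 pairs given calls, 83 kept their direction and their side of the threshold. The exception was C1qa against Cfp, whose mean log2 difference lay between -0.065 and 0.36 when a library was left out, the lower value without replicate 1 (adjusted p by limma 0.707) and the higher without replicate 2 (adjusted p 0.0996). The order of the 8 components was kept in every alternative except without replicate 1, where Cfp stood above C1qa. C4b against Serping1 and C4b against C4a crossed the threshold in 9 settings and are given as values. The count of detected complement genes, 17, was 13 with the read-based table, which lost C5ar2, Cd55, Cd59a and Fcna, 19 when rescaled over nuclear protein-coding genes, which added C2 and C4b, and 12 at 5 TPM or more. Such settings shift the calls of genes in general. The share of all protein-coding genes detected under each was not computed, so these changes are not particular to complement genes. Rescaling puts C4b at 1.76 ± 0.685 (SD, n = 3), so its place under 1 TPM depends on the scale. Mean levels of all 8 components moved with FPKM, rescaled TPM and the read-based table, by construction of the unit for the first 2. All 36 alternative library deviations differed from their main value by less than the SD of that library's deviations over genes, 0.23 to 0.26. Depth limits Serping1 and C4b, and no paired analysis was possible because there is 1 group.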
